A study of Mus musculus with 13 samples.

Results

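Transcripts of 10 immediate early genes (Fos, Fosb, Jun, Junb, Egr1, Nr4a1, Klf6, Atf3, Dusp1 and Ier2) were followed through 13 RNA sequencing libraries of T cells sorted from mouse tumors. The genes were picked by symbol, with values of these data known, among the 12963 genes that the table lists. All 10 were present, and all 10 were among the 12667 genes tested, which reached 10 normalized reads in at least 2 libraries. A normalized read is a read count divided by a size factor of its library. The levels of the 10 transcripts and their variation between libraries are therefore a description.

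Every animal carried the Foxp3-EGFP-DTR allele, in which the endogenous Foxp3 gene drives a green reporter and a receptor for diphtheria toxin (DTx). B16-F10 cells, a melanoma line, were grown under the skin, and the animals received PBS or DTx, which removes Foxp3-expressing regulatory T (Treg) cells. The 5 groups were Treg cells of animals given PBS (Treg PBS, n = 3), CD4+ and CD8+ conventional T (Tconv) cells of animals given PBS (CD4 PBS and CD8 PBS, n = 2 each), and the same Tconv populations of animals given DTx (CD4 DTx and CD8 DTx, n = 3 each). Libraries are named by the number in their title, and CD4 PBS and CD8 PBS were represented by the numbers 2 and 3. The study describes the replicates as biological and collected on separate days, but the labels do not say which animal or day a number stands for. Ages of the animals are not given in the labels, and removal by DTx reaches only cells that express Foxp3.

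Immediate early genes are transcribed within minutes of a stimulus by factors already present in the cell, and their mRNAs are mostly short-lived. Signals through the MAP kinases act on serum response factor and its partners, and signals through calcium and cyclic AMP act on CREB. In T cells, engagement of the antigen receptor induces Fos, Jun, Egr1 and Nr4a1 among others. Fos, FosB, Jun and JunB pair to form the AP-1 transcription factor, whereas Dusp1 is a phosphatase that switches MAP kinases off.

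Promoter sequences are shown for the 5 members on which the results turn. They were taken from RefSeq (GRCm38.p6, a different build from the mm9 genome to which the reads were aligned), which held 8 of the 10 members, Egr1 and Ier2 not being among them. Each run is the 200 bases before the annotated start, 5′ to 3′ on the strand of the gene, and capitals mark the motifs found.
Fos, chr12:85473690-85473889, plus strand: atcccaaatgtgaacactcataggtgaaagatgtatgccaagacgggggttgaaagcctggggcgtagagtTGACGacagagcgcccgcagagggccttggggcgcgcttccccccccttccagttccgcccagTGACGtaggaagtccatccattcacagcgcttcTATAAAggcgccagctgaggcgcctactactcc
Fosb, chr7:19310046-19310245, minus strand: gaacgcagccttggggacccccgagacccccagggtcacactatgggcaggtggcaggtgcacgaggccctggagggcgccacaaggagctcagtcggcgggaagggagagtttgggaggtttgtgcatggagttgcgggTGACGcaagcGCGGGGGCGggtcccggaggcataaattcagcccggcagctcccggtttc
Jun, chr4:95052223-95052422, minus strand: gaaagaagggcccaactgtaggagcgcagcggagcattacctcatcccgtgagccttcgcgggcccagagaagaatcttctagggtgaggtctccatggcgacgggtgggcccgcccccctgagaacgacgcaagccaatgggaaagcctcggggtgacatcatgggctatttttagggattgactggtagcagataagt
Junb, chr8:84978749-84978948, minus strand: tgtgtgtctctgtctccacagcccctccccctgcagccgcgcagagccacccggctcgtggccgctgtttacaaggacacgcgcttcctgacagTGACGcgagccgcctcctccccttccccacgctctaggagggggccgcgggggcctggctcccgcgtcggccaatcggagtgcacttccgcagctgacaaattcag
Dusp1, chr17:26508473-26508672, minus strand: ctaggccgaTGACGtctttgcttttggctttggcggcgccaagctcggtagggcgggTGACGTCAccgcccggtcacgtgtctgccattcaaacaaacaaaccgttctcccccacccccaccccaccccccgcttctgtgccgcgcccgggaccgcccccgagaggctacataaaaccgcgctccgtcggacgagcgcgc

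Motifs were searched on both strands of the 250 bases before the start. TGACG, the core of the site that CREB and ATF proteins bind, was in 6 of the 8 member promoters (Fos, Fosb, Junb, Nr4a1, Atf3 and Dusp1) and in 17.9% of all 27025 promoters of the same length. This short core was added after the sequences had been seen, and it overlaps the full site TGACGTCA, which was in the Dusp1 promoter and in 1.62% of all promoters. GCGGGGGCG, the site of Egr proteins, was in the Fosb and Nr4a1 promoters and in 2.56% of all. In the Fos promoter TGACG began at positions -129 and -66, counted from the start, and TATAAA began at position -33 (13% of all promoters hold TATAAA). The AP-1 site TGAGTCA (4.43% of all) and the CArG box of serum response factor (1.40% of all) were in none of the 8 windows, which says only that these letters are not in them. No motif searched was found in the Jun promoter.

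The sorted cells were checked against their labels. Foxp3 lay between 1178 and 1896 normalized reads in Treg libraries, at 1.87 or less in CD4+ Tconv libraries and at 12.1 or less in CD8+ libraries. Cd4 lay between 10595 and 32503.5 in Treg and CD4+ Tconv libraries and at 413 or less in CD8+ libraries, and Cd8a between 23475 and 48329.5 in CD8+ libraries. In CD4+ Tconv libraries Cd8a reached 1302 and Cd8b1 2360, and in Treg libraries they reached 180 and 922. Libraries held between 15947556 and 34140486 recovered reads, so that a count of 3 reads, taken as the floor of detection, came to between 1.98 and 4.10 normalized reads. Floors cover counting error only, since the labels name no molecular identifiers. Xist, transcribed from the inactive X chromosome, was at 0 in the 5 libraries numbered 3 and between 942 and 5798 in the other 8, whereas Ddx3y, a gene of the Y chromosome, was at 2598 or more in the former and at 0 in the latter. The libraries numbered 3 thus carried a male pattern of sex-linked transcripts and the others a female one, in every group. Being numbered 3 and being male cannot be told apart here. Differences between groups that rest on the libraries numbered 3 from PBS-treated animals are given with and without them. Without them CD4 PBS and CD8 PBS are library 2 alone. A difference from either then rests on that library, with a spread taken from the other groups. The libraries numbered 3 shared more than their number, so differences within a number, and fits with the number as a term, are given as well.

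Taken as a sum, immediate early transcripts were far higher in the libraries numbered 3 of all 3 PBS groups than in the other libraries. Their summed level was between 181465 and 233817 normalized reads in these 3 libraries, which is between 0.759% and 1.04% of all normalized reads. In the other 4 PBS libraries the sum lay between 29134 and 54135, and in the 6 DTx libraries between 19348 and 41489. The PBS libraries numbered 3 thus lay above all others without overlap, whereas the other PBS libraries and the DTx libraries overlapped.

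**Figure D1:**
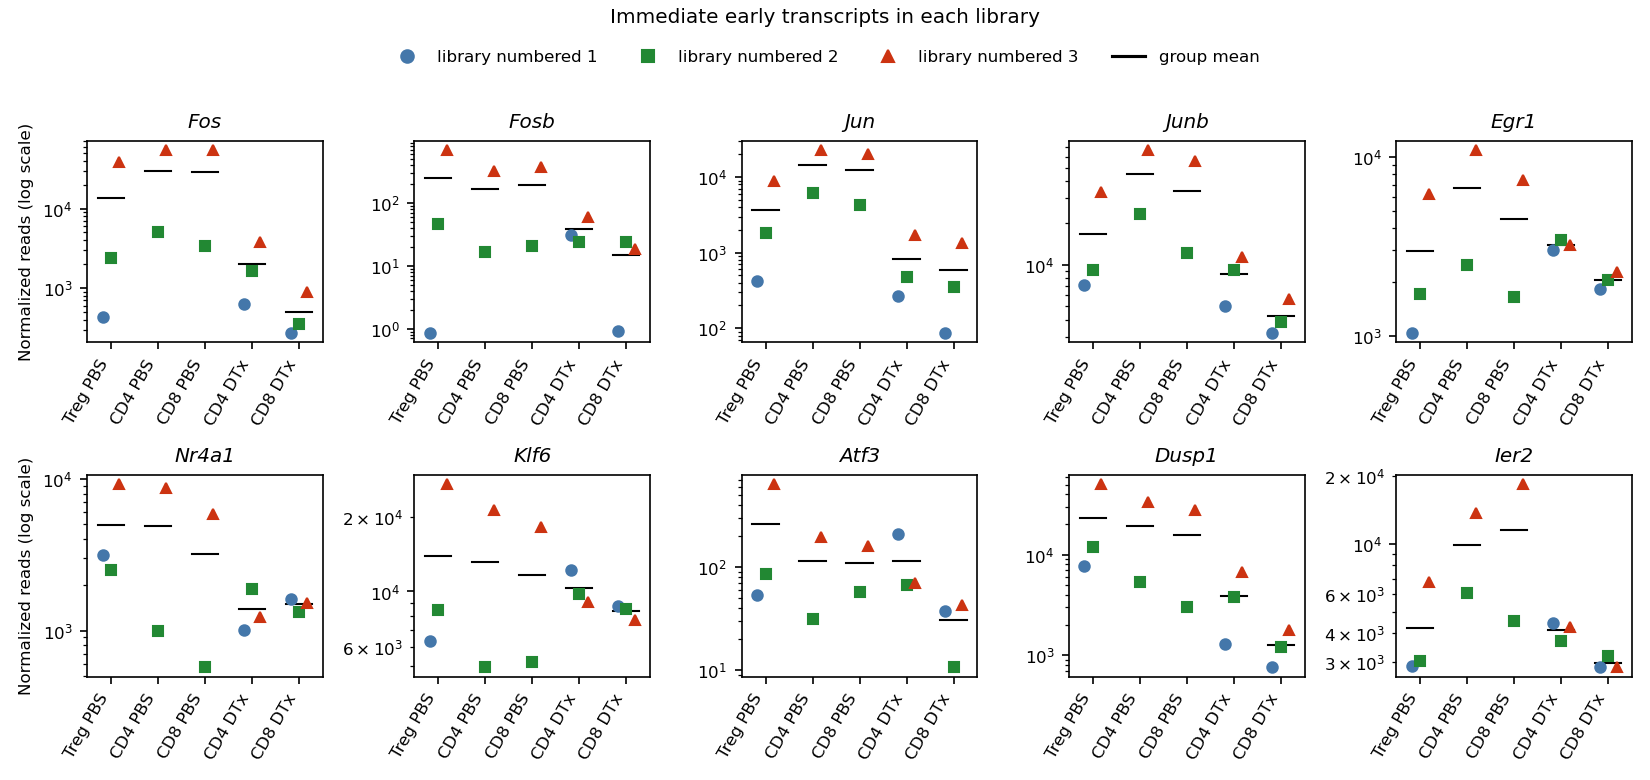
Normalized reads (log scale, a separate range for each gene) of the 10 immediate early genes in the 5 groups, with 1 point per library, coloured and shaped by the number in its title, and a bar at the group mean. In Treg PBS, CD4 PBS and CD8 PBS the triangle of library 3 is the highest point for every gene, while in the DTx groups the points of Egr1, Klf6 and Ier2 lie close together.

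Fos, the partner of Jun proteins in AP-1, was at 427, 2378 and 38019 normalized reads in Treg PBS libraries 1, 2 and 3. It was at 5052 and 54781 in CD4 PBS libraries 2 and 3, and at 3397 and 54646 in CD8 PBS libraries 2 and 3. After DTx it was at 635, 1639 and 3829.5 in CD4 DTx and at 271, 351 and 889.7 in CD8 DTx. Library 3 was the highest of each of the 5 groups, and the DTx libraries of both Tconv populations lay below every PBS library of the same population. Library 3 exceeded library 2 of its group 16.0-fold in Treg PBS, 10.8-fold in CD4 PBS, 16.1-fold in CD8 PBS, 2.34-fold in CD4 DTx and 2.54-fold in CD8 DTx.

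Fosb, the nearest relative of Fos in the list, was a low transcript. It was at 0.847, 45.5 and 703 normalized reads in Treg PBS, at 16.4 and 319 in CD4 PBS, with 20.7 and 372 in CD8 PBS. In CD4 DTx it was at 30.9, 23.5 and 60.6, and in CD8 DTx at 0.924, 24.1 and 18.8. The lowest values in Treg PBS 1 and CD8 DTx 1 correspond to 1 recovered read each, under the floor. Library 3 was between 15.4- and 19.5-fold above library 2 in the PBS groups, and was not the highest library of CD8 DTx.

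Jun, the central AP-1 subunit, was at 424, 1797 and 8778 normalized reads in Treg PBS. It was at 6145 and 22959.9 in CD4 PBS, with 4311 and 20124 in CD8 PBS. After DTx it was at 267, 475 and 1733 in CD4 DTx and at 85.9, 356 and 1341 in CD8 DTx. Jun was therefore lower in each DTx library than in each PBS Tconv library, while the Treg PBS libraries overlapped with both. Library 3 was the highest of each group, by 3.74- to 4.88-fold over library 2 in the PBS groups, and by 3.65- and 3.76-fold in CD4 DTx and CD8 DTx.

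Junb, a Jun relative that is abundant in T cells, was at 7125, 9172 and 33379 normalized reads in Treg PBS, at 23102 and 67403 in CD4 PBS, with 12161.5 and 56238 in CD8 PBS. It was at 5023, 9138 and 11357 in CD4 DTx and at 3190, 3861 and 5616 in CD8 DTx. Here too all DTx libraries lay below all PBS libraries of the same Tconv population. Atf3, a stress-induced factor that binds DNA with Jun proteins, was at 53.3, 86.7 and 646 in Treg PBS, at 31.4 and 197 in CD4 PBS, with 57.1 and 163 in CD8 PBS. It was at 211, 66.5 and 69.8 in CD4 DTx and at 37.9, 10.6 and 43.1 in CD8 DTx. Its highest library after DTx was CD4 DTx 1, not a library numbered 3.

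Egr1, a zinc finger factor of antigen receptor signaling, was at 1033, 1709 and 6200.4 normalized reads in Treg PBS, at 2483 and 10951 in CD4 PBS, with 1646 and 7397 in CD8 PBS. It was at 3025, 3449.8 and 3232 in CD4 DTx and at 1837, 2039 and 2264 in CD8 DTx. The DTx libraries lay between PBS library 2 and PBS library 3 of CD4+ and of CD8+ cells. Klf6, another zinc finger factor, had the same arrangement, with 4947 and 21249.9 in CD4 PBS, 5199.9 and 18126 in CD8 PBS, 12144, 9785 and 9068 in CD4 DTx and 8721, 8536 and 7671 in CD8 DTx. In Treg PBS Klf6 was at 6348, 8391 and 27076.

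Nr4a1, the orphan nuclear receptor Nur77, was at 3143, 2489 and 9248 normalized reads in Treg PBS, at 993 and 8742 in CD4 PBS, with 571 and 5829 in CD8 PBS. It was at 1012, 1884 and 1234 in CD4 DTx and at 1624, 1328 and 1522 in CD8 DTx. All DTx libraries were above PBS library 2 and below PBS library 3 of the same population, as for Egr1 and Klf6.

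Dusp1, the MAP kinase phosphatase, was at 7725, 11808 and 50632 normalized reads in Treg PBS, at 5323 and 33568 in CD4 PBS, with 3024 and 28191 in CD8 PBS. It was at 1284, 3808 and 6652 in CD4 DTx and at 754, 1204 and 1786 in CD8 DTx. Each CD8 DTx library was below each CD8 PBS library, whereas CD4 DTx library 3 was above CD4 PBS library 2. Ier2, a small nuclear protein gene of the early response, was at 2854, 3020.2 and 6783 in Treg PBS, at 6042 and 13645.5 in CD4 PBS, with 4518 and 18372 in CD8 PBS. It was at 4429, 3700.3 and 4254 in CD4 DTx and at 2827, 3172 and 2841 in CD8 DTx. Both Tconv populations had Ier2 below all of their PBS libraries after DTx.

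In the PBS groups the members were high and low in the same libraries. On the log2(normalized reads + 1) scale, all 10 members were above the group mean in library 3 of each PBS group, with a mean deviation of 1.97 in Treg PBS, 1.25 for CD4 PBS and 1.33 for CD8 PBS. In CD4 DTx library 3, 7 of the 10 were above it, with a mean deviation of 0.44, and in CD8 DTx library 3, 8 of the 10 were above it, with 0.58. The members were split in the other DTx libraries, with 5 of 10 above the group mean in library 2 of each group, while 3 of 10 were above it in library 1 of either group. In CD4 DTx 1 Atf3 was 1.08 above the group mean, where Fos was at -1.32. The lowest mean deviation was -1.57, in Treg PBS library 1, where no member was above the group mean. In the groups of 2 libraries the deviations mirror each other by construction.

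**Figure D2:**
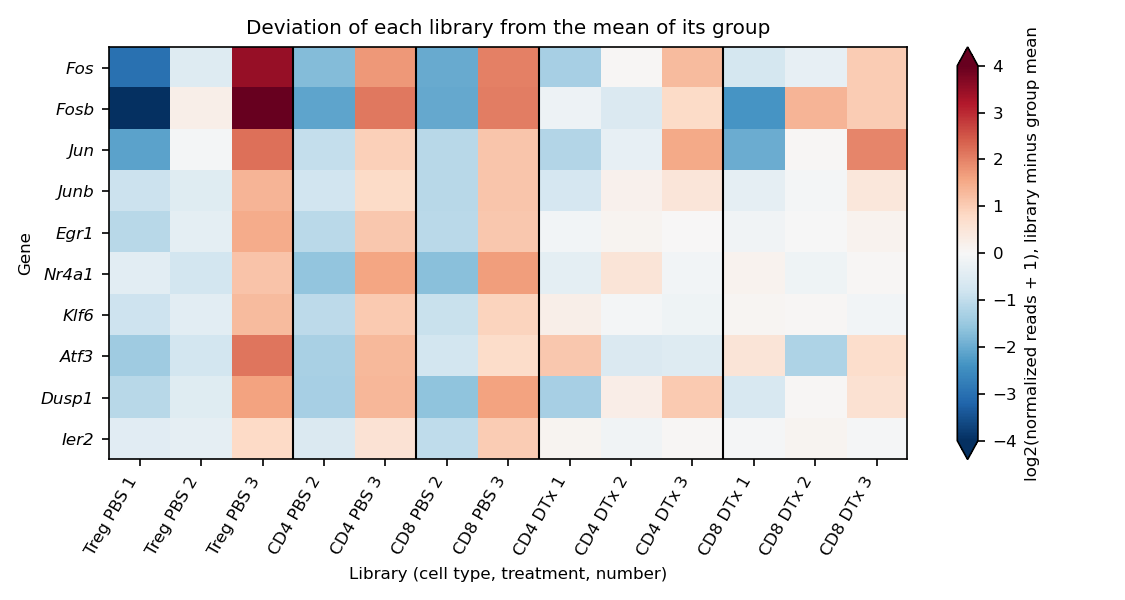
Deviation of each library (columns, 5 groups divided by lines) from the mean of its group on the log2(normalized reads + 1) scale, for the 10 immediate early genes (rows), red above and blue below the mean. The columns of Treg PBS 3, CD4 PBS 3 and CD8 PBS 3 are red for every gene, while the DTx columns are paler, apart from Fos, Fosb, Jun, Atf3 and Dusp1.

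Over the 45 pairs of members, the deviations from the group means correlated across the 13 libraries with a median Pearson r of 0.86, from 0.52 for Jun with Atf3 to 0.98 for Junb with Dusp1. The median r over all pairs of genes from the same bands of expression level (10 bands of equal size) was 0.009. The points share library, depth and group mean, and the members had been picked with these values known, so the correlations are a description.

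The spread between libraries of a group, pooled over the 5 groups, was large for genes of this level. It was not alike in all groups. Egr1 deviated from the group mean by -0.15 to 0.15 in CD8 DTx but by 1.08 in CD8 PBS library 3. Jun deviated by -2.00 to 1.95 in CD8 DTx and by 1.11 in CD8 PBS library 3. The residual standard deviation on the log2 scale was 2.24 for Fos, 1.78 for Jun, 1.43 for Dusp1, 1.28 for Nr4a1, 1.02 for Egr1, 0.97 for Junb, 0.90 for Klf6 and 0.69 for Ier2. Among the genes of the same band of level these 8 had percentiles between 96.4 and 100. The lower transcripts Fosb and Atf3 had standard deviations of 2.82 and 1.40, with percentiles of 96.9 and 75.5 in their bands, where all genes vary more. The median over the members was 1.34, against 0.45 over all genes tested.

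**Figure D3:**
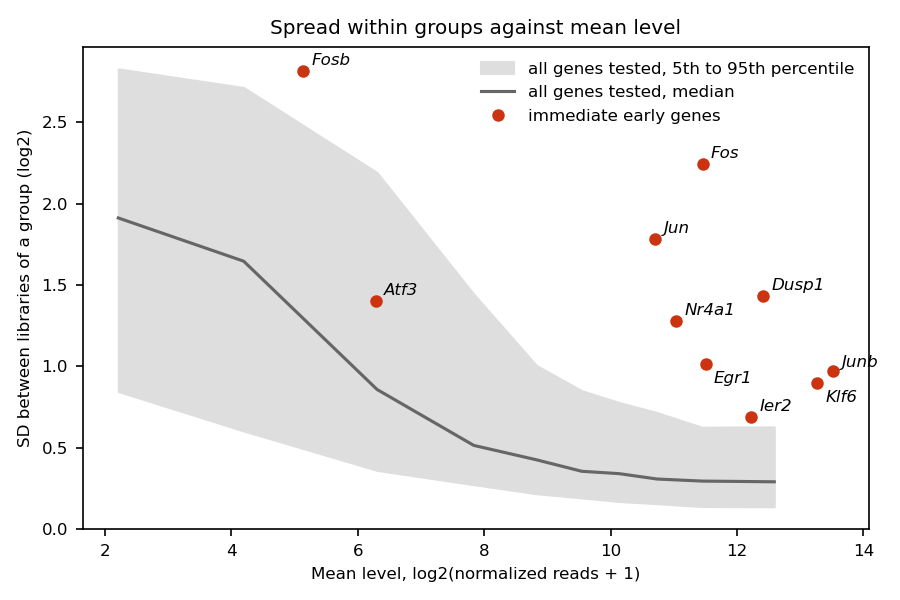
Standard deviation between libraries of a group (log2) against mean level, log2(normalized reads + 1), for the 10 immediate early genes (red points) over the median (line) and the range from the 5th to the 95th percentile (shading) of all genes tested, in 10 bands of level. Atf3 lies inside the shading, and the other 9 genes lie above it. The standard deviation is pooled over the groups.

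Library 3 was set against library 2 of the same group, since these numbers occur in all 5 groups. The median difference over the members was 2.0 on the log2 scale in Treg PBS, 2.37 for CD4 PBS and 2.22 for CD8 PBS, where the median of all genes lay between -0.01 and 0.05. In CD4 DTx it was 0.26 and in CD8 DTx 0.37. All 10 members were more than 2-fold higher in library 3 in all 3 PBS groups, as were 0.892% of the 12667 genes tested. Fos, Fosb and Dusp1 were more than 4-fold higher in all 3 groups, as were 0.276% of genes. Just below that limit, Nr4a1 was 3.71-, 8.80- and 10.2-fold and Jun 4.88-, 3.74- and 4.67-fold higher in Treg PBS, CD4 PBS and CD8 PBS, and the smallest excess was that of Ier2 in Treg PBS, 2.25-fold.

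In the DTx groups, 5 of the 10 members (Fos, Jun, Junb, Atf3 and Dusp1) were higher in library 3 than in library 2 of both populations, beside 31.8% of all genes. Fos and Jun were more than 2-fold higher in both (5.86% of genes), and they were also among the 11 genes (0.0868%) that were more than 2-fold higher in library 3 of all 5 groups. The Y-linked genes Ddx3y, Eif2s3y, Kdm5d and Uty made up 4 of these 11. They were named after the values had been seen. The DTx libraries numbered 3 carried the same sex-linked pattern as the PBS libraries numbered 3, with member medians of 0.26 and 0.37 as given above.

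**Figure D4:**
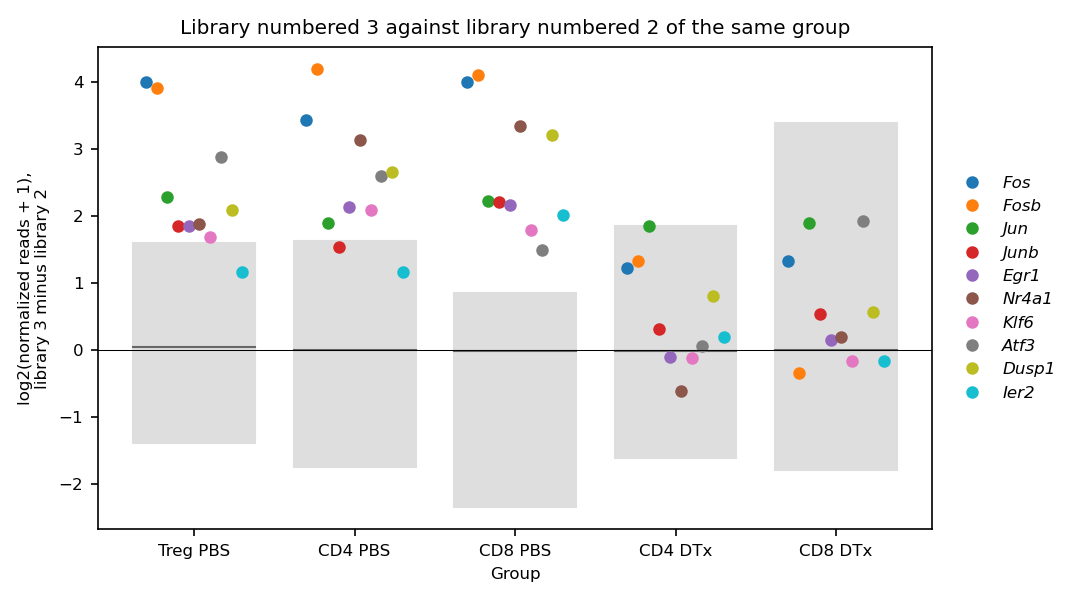
Difference between libraries 3 and 2 of the same group, log2(normalized reads + 1), for the 10 immediate early genes (coloured points) over the range from the 5th to the 95th percentile (shading) and the median (dark line) of all 12667 genes tested. In the 3 PBS groups all points are above 1 and most lie above the shading, and in the DTx groups all lie inside it except Jun in CD4 DTx, at its upper edge.

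Other transcripts that moved with the members were looked for in lists. Of 44 further immediate early and early response genes 42 were in the table and 41 were tested. In library 3 of the 3 PBS groups 37 of the 41 were higher than in library 2 (17.7% of all genes were), and 19 were more than 2-fold higher (0.892% of all genes). The median difference was 1.21, 1.47 and 1.35 in Treg PBS, CD4 PBS and CD8 PBS and 0.15 and 0.25 in CD4 DTx and CD8 DTx. More than 4-fold higher in all 3 PBS groups were Zfp36, Klf4, Nfkbiz, Ppp1r15a, Socs3 and Plk2, of which Klf4, Nfkbiz and Plk2 were chosen for mention after their values were seen. Zfp36, a protein that destabilizes early response mRNAs, was at 2257 and 20660 normalized reads in Treg PBS 2 and 3 and at 6609 and 32440.2 in CD4 PBS 2 and 3.

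Kinases and promoter factors that act upstream of the members differed less. Of 18 such genes none was more than 2-fold higher in library 3 of all 3 PBS groups (0.892% of all genes were), and 5 were higher at all (17.7% of all genes). Median differences were 0.32, 0.15 and 0.01. Of 12 heat shock genes none was more than 2-fold higher in all 3 groups, but 9 were higher, beside 17.7% of all genes. Their medians were 0.59, 0.92 and 0.73. Hspa1a, named after its values were seen, was at 554 and 4787 normalized reads in Treg PBS 2 and 3, but at 764 and 1079 in CD4 PBS 2 and 3.

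Markers of other cells were measured in the same libraries. Erythroid markers, of which 3 of 5 were in the table (Hba-a1, Hba-a2 and Alas2), were higher in library 3 of all 3 PBS groups, as were 17.7% of all genes. Their sum was between 3216 and 6570.2 normalized reads there, between 948 and 2218 in the other PBS libraries and between 0 and 1175 after DTx, and their part in the difference was not tested. None of the 3 was at 0 in a PBS library. None of the 10 myeloid, 4 B cell and 4 melanocyte markers tested was higher in library 3 of all 3 groups, beside the same 17.7% of all genes. The myeloid sum was between 1542 and 20455 in the PBS libraries numbered 3 and between 2866 and 26189 in the other PBS libraries, with S100a8 at 0 in all 3 of the former, and the B cell sum between 147 and 794 against 272 and 948. The melanocyte sum was between 171 and 1197 against 435 and 795, and 1 of the 5 stromal and endothelial markers, Pecam1, was in the table, at 2017 to 7092 against 1633 to 7291. Mitochondrial transcripts took between 0.768% and 1.06% of reads in the PBS libraries numbered 3 and between 0.499% and 1.38% in the others. After DTx the melanocyte sum was between 60.7 and 170.2, where the lowest PBS library was nearly level at 170.6. Tyrp1 and Dct were at 0 in at least 1 of the 6 DTx libraries, as were Hba-a1, Hba-a2 and Alas2. The myeloid sum was between 831 and 4669 after DTx and the B cell sum between 92.6 and 1296. In these bulk libraries, fewer cells with a transcript and less of it per cell cannot be told apart.

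Among 9705 tested genes with a mean of at least 100 normalized reads, those whose deviations followed the mean deviation of the members most closely over the 13 libraries were Zfp36 (Pearson r 0.98), Ppp1r15a (0.97), Proser1 (0.97), Tnfaip3 (0.97), Pim1 (0.96), Dusp11 (0.96), Socs3 (0.96), Gm12840 (0.95), Vezf1 (0.95) and Klf11 (0.95). Zfp36, Ppp1r15a, Tnfaip3, Pim1 and Socs3 belong to the list of further early response genes. Ppp1r15a, a phosphatase subunit of the stress response, was at 1575, 2575 and 14833 normalized reads in Treg PBS, at 8657 and 38485 in CD4 PBS, at 3934 and 26703 in CD8 PBS, at 1803, 1665 and 2792 in CD4 DTx and at 918, 670 and 1564 in CD8 DTx. Tnfaip3, an inhibitor of NF-kB signaling, was at 7550, 12046 and 40869 in Treg PBS and at 9365, 10693 and 14445 in CD4 DTx. The most opposite genes were Ifi204 (-0.95), Xkr8 (-0.94), Nmral1 (-0.93), Nat2 (-0.92) and Tmem203 (-0.92). Ifi204, an interferon-induced gene, was at 56.7, 58.5 and 3.53 normalized reads in Treg PBS and at 62.9 and 1.98 in CD4 PBS.

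Whether the groups differed was then tested with limma on log2(normalized reads + 1), and a gene was called at a Benjamini-Hochberg adjusted p under 0.05 over all genes tested and a change over 4-fold. Over the 5 groups together a moderated F test was used, called at an adjusted p under 0.05 with no fold threshold. It called 3 of the 10 members, beside 26.2% of all genes: Junb (adjusted p = 0.0256), Jun (0.0317) and Dusp1 (0.0445). Fos had an adjusted p of 0.110, Ier2 of 0.0856, and Klf6 of 0.974. Leaving out CD8 DTx 1 or CD8 DTx 2 in the limma fit left 0 members called, and leaving out Treg PBS 2 or CD4 DTx 2 left 1 (Junb). Without the 3 PBS libraries numbered 3, a choice made after seeing the data, CD4 PBS and CD8 PBS were library 2 alone, so no call is given here.

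After Treg cells were removed, Jun and Junb were called lower in CD8+ Tconv cells by limma with all 13 libraries in the fit. Jun was at 12217 ± 11182 normalized reads in CD8 PBS (SD, n = 2) and at 594 ± 660 in CD8 DTx (SD, n = 3), a log2 difference of -4.75 with a standard error of 1.33 (limma adjusted p = 0.0399). Junb had a difference of -2.67 with a standard error of 0.74 (limma adjusted p = 0.0371). These were 2 of the 10 members called lower, beside 1.59% of all genes (5.46% in either direction). On the recovered reads edgeR called only Junb, beside 375 genes called higher and 153 lower of 12667. A limma fit of the CD8 groups alone called no member, beside 118 genes called higher and 83 lower. The differences of Fos (-4.95, adjusted p = 0.0793), Dusp1 (-2.97, 0.0990) and Ier2 (-1.63, 0.0687) did not pass in the limma fit. All 10 members had a negative difference, with a median of -2.26 against -0.03 over all genes, and 5 had an unadjusted p under 0.05. In Fos, Jun, Junb, Atf3, Dusp1 and Ier2 every CD8 DTx library was below every CD8 PBS library, as in 20.8% of all genes. Markers of other cells were also lower in this contrast, with a median log2 difference of -2.12 over the 4 melanocyte markers (2 with an unadjusted limma p under 0.05) and of -4.51 over the 3 erythroid markers (0), and their part in the differences was not tested.

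Jun and Junb were lower in CD8 DTx whichever library of the contrast was left out, by between -5.86 and -3.64 for Jun and between -3.78 and -1.57 for Junb, but their calls were not stable. Leaving out CD8 PBS 3, so that CD8 PBS was library 2 alone, put Jun at -3.64 and Junb at -1.57. Leaving out CD8 DTx 1 (Jun at -3.75 and Junb at -2.49) left 0 members called. Without CD8 DTx 2 the differences hardly moved, at -4.77 and -2.63, but their standard errors were 1.54 and 0.85, and 0 members were called. Leaving out CD8 PBS 2, so that CD8 PBS was library 3 alone, put Jun at -5.86 and Junb at -3.78. With the library number as a term in the limma fit 4 members were called: Jun (-3.86), Junb (-2.35), Fos (-4.12, adjusted p = 0.00906) and Dusp1 (-2.46, 0.0106). That term takes the shift between numbers as equal in PBS and DTx. The member median of library 3 minus library 2 was 2.22 in CD8 PBS and 0.37 in CD8 DTx, so these calls rest on an unmet assumption. Without the 3 PBS libraries numbered 3, CD8 PBS was again library 2 alone, so only differences are given. Library 3 was the highest PBS library for every member, so leaving it out raises every DTx minus PBS difference by construction. The median over the members was then -1.12, and 3 members were above 0. Jun had a difference of -3.64, Junb of -1.57 and Nr4a1 of 1.38.

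Library 3 and library 2 gave different pictures of the CD8+ cells. Between libraries numbered 3 all 10 members were lower after DTx, by log2 differences from -5.94 (Fos) to -1.24 (Klf6) with a median of -3.01. Between libraries numbered 2 the median was -0.92, and Fosb (0.21), Egr1 (0.31), Nr4a1 (1.22) and Klf6 (0.71) were above 0. Jun was lower within each number, at -3.59 for number 2 and -3.91 for number 3, as was Junb, at -1.66 and -3.32. These within-number values compare 1 library with 1 and carry no test.

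In CD4+ Tconv cells no member was called after DTx, beside 6.85% of all genes. Jun was at 14553 ± 11890 normalized reads in CD4 PBS (SD, n = 2) and at 825 ± 793 in CD4 DTx (SD, n = 3), a log2 difference of -4.30 with a standard error of 1.33 (limma adjusted p = 0.0535). Junb differed by -2.29 (limma adjusted p = 0.0617), Fos by -3.39 (0.221) and Dusp1 by -2.07 (0.246). The difference of Klf6 was -0.00 and that of Atf3 was 0.33, and the median over the members was -1.14 against -0.04 over all genes. By limma 2 members had an unadjusted p under 0.05, and on the recovered reads edgeR called 0 members and DESeq2 called 2 (Jun and Junb). Fos, Jun, Junb and Ier2 were below every CD4 PBS library in every CD4 DTx library, as were 22.9% of all genes. The 4 melanocyte markers had a median difference of -2.77 (2 with an unadjusted limma p under 0.05) and the 3 erythroid markers one of -7.04 (3), and their part was not tested.

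Leaving out CD4 DTx 3 brought Jun past the threshold (limma adjusted p = 0.0414). That library was the highest of CD4 DTx for Jun and CD4 PBS kept its library 3, so the lower difference follows from the omission. With the library number as a term in the limma fit Jun was called, at -3.41 (adjusted p = 7.94e-05), and Junb, at -1.98 (0.00577), stayed under 4-fold. That term takes the shift between numbers as equal in PBS and DTx. The member median of library 3 minus library 2 was 2.37 in CD4 PBS and 0.26 in CD4 DTx, so this call rests on an unmet assumption. Without the 3 PBS libraries numbered 3, CD4 PBS was library 2 alone, so only differences are given. Jun then had a difference of -3.35, and the median over the members was -0.09. Above 0 were 5 members: Fosb (1.06), Egr1 (0.38), Nr4a1 (0.42), Klf6 (1.05) and Atf3 (1.63).

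Libraries 2 and 3 also differed in this contrast. Between CD4 DTx 3 and CD4 PBS 3 all 10 members were lower, from -3.84 (Fos) to -1.23 (Klf6), with a median of -2.36 on the log2 scale. Between CD4 DTx 2 and CD4 PBS 2 the median was -0.00, and 5 members were higher, among them Klf6 (0.98), Nr4a1 (0.92) and Egr1 (0.47). Jun was at -3.69 for number 2 and -3.73 for number 3, Fos at -1.62 and -3.84, and Junb at -1.34 and -2.57.

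**Figure D5:**
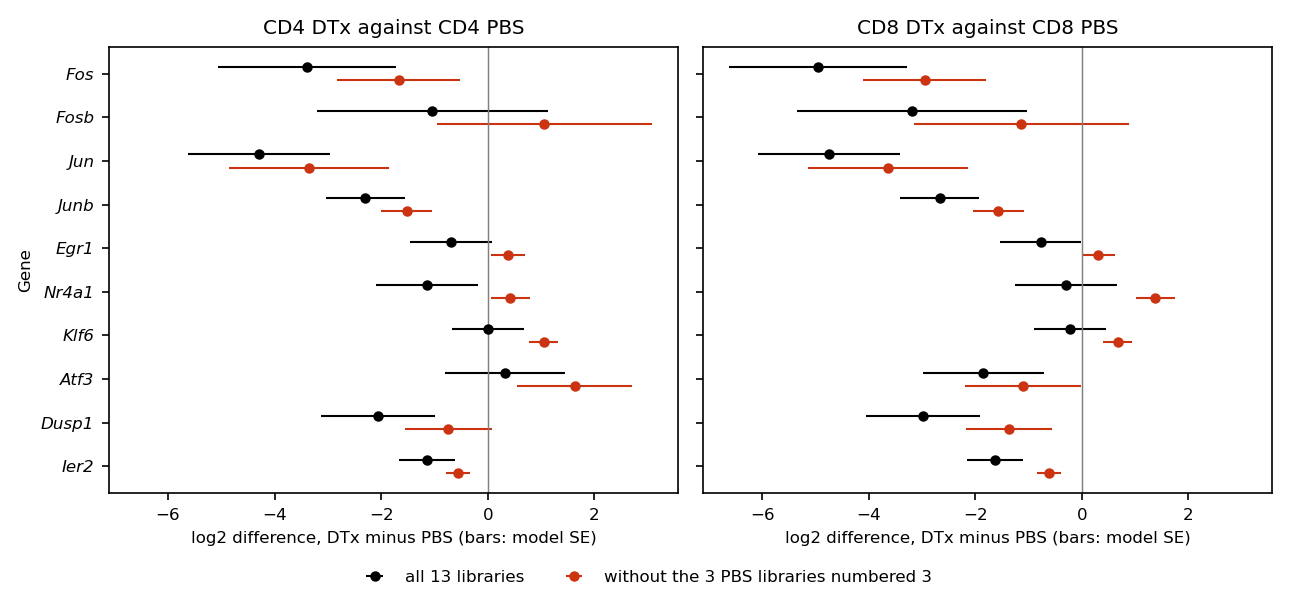
Difference between DTx and PBS in CD4+ (left) and CD8+ (right) Tconv cells, log2(normalized reads + 1), for the 10 immediate early genes in the limma fit over all 13 libraries (black) and without the 3 PBS libraries numbered 3 (red), with bars of 1 model standard error. Without these 3 libraries every difference moves toward or past 0 on the right, and Egr1, Nr4a1 and Klf6 lie above 0 in both panels. Library 3 was the highest PBS library for every gene, so the direction of the shift follows from the omission. CD4 PBS and CD8 PBS are then library 2 alone.

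Whether DTx changed the members differently in CD4+ and CD8+ cells was tested as an interaction. No member was called by limma, edgeR or DESeq2, 0 had an unadjusted limma p under 0.05, and 0.0474% of all genes were called. The interaction of Jun was 0.45 with a standard error of 1.88, and that of Fos was 1.56 with a standard error of 2.36 (limma adjusted p = 1 for all 10 members).

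In tumors with Treg cells, Treg and CD4+ Tconv cells were compared. No member was called by limma, edgeR or DESeq2, beside 10.2% of all genes called by limma, and the groups overlapped for all 10 members, whereas 29.2% of all genes had every Treg PBS library above and 27.4% every Treg PBS library below the CD4 PBS libraries. Junb was lower by a log2 difference of -1.61 and Ier2 by -1.23, with unadjusted p under 0.05 for these 2 members and limma adjusted p of 0.143 and 0.120. Dusp1 (0.32), Nr4a1 (0.50), Klf6 (0.14) and Atf3 (0.86) had differences above 0, and the median over the members was -1.08. Jun had the largest fitted difference, -2.65 (limma adjusted p = 0.178). Treg PBS 1 has no CD4 PBS library of its number, and library 3 was the highest of both groups for every member. Within numbers 2 and 3 the median difference was 0.11 and -0.22, and each member had the same direction in both. Fos (-1.09 and -0.53), Jun (-1.77 and -1.39), Junb (-1.33 and -1.01), Egr1 (-0.54 and -0.82) and Ier2 (-1.0 and -1.01) were lower in Treg cells. Higher in Treg cells were Fosb (1.42 and 1.14), against a fitted difference of -0.93, Nr4a1 (1.32 and 0.08), Klf6 (0.76 and 0.35), Atf3 (1.43 and 1.71) and Dusp1 (1.15 and 0.59).

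Leaving out Treg PBS 3 brought Junb past the threshold, with a difference of -2.29 (limma adjusted p = 0.0358). Treg PBS 3 was the highest Treg library and CD4 PBS kept its library 3, so the lower difference follows from the omission. With the library number as a term Jun was at -1.77 (limma adjusted p = 0.00223) and Junb at -1.29 (0.0331), both under 4-fold. With a number term for each treatment, a choice made after seeing the data, 6 members had an adjusted p under 0.05 by limma, and none of them a change over 4-fold. Without all 3 PBS libraries numbered 3, CD4 PBS was library 2 alone, the median over the members was -0.91, and Ier2 was at -1.04.

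Set against Treg cells, CD4+ Tconv cells after DTx had no member called by limma, edgeR or DESeq2, beside 4.01% of all genes called by limma, and 1 member had an unadjusted p under 0.05. Dusp1 differed by -2.38 (limma adjusted p = 0.165) and Nr4a1 by -1.65 (0.303), and for both every CD4 DTx library was below every Treg PBS library, as in 15.2% of all genes. Within number 2 the median over the members was -0.39, and within number 3 it was -2.62. With the library number as a term Dusp1 was called by limma (adjusted p = 0.00692) at the same difference, in a fit that takes the shift between numbers as equal in PBS and DTx. Without the 3 PBS libraries numbered 3 the median over the members turned from -0.61 to 0.49, and 6 members were above 0 in place of 2, among them Fos, which turned from -1.09 to 0.65. The omission was chosen after seeing the data. Treg PBS 3 was the highest Treg library for every member, so leaving it out raises every difference by construction. Egr1 was then higher in CD4 DTx by 1.28 (limma adjusted p = 0.0314), a change under 4-fold, and the difference of Dusp1 was -1.58 (0.235). The standard error of Egr1 went from 0.68 to 0.25 by the same omission, so its adjusted p is no independent result.

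Between CD8+ and CD4+ Tconv cells after DTx no member was called by limma, edgeR or DESeq2, beside 0.576% of all genes called higher and 0.426% called lower by limma, and 0 had an unadjusted p under 0.05. The spread in this fit was pooled over all 13 libraries. Without the 3 PBS libraries numbered 3, which are in neither group, the differences were the same and still no member was called, but 5 had an unadjusted p under 0.05 (Junb, Egr1, Atf3, Dusp1 and Ier2), and the standard error of Egr1 went from 0.68 to 0.22. In the fit over all 13 libraries 9 of the 10 differences were negative, with a median of -0.89 on the log2 scale, and every CD8 DTx library was below every CD4 DTx library for Egr1, Klf6, Atf3 and Ier2, as in 6.02% of all genes. Atf3 differed by -1.89 (limma adjusted p = 0.547), and Egr1, at 3236 ± 212 in CD4 DTx and 2046 ± 214 in CD8 DTx (SD, n = 3 each), by -0.66 (0.844). Within numbers 1, 2 and 3 the median was -0.74, -0.63 and -0.63, and 8 members were lower in CD8 DTx in all 3 pairs, among them Fos (-1.23, -2.22 and -2.10), Junb (-0.65, -1.24 and -1.02) and Egr1 (-0.72, -0.76 and -0.51). With the library number as a term no member had an adjusted p under 0.05 by limma, and 5 had an unadjusted one. With a separate number term for each treatment, a choice made after seeing the data, Fos (limma adjusted p = 0.00344), Junb (0.0141), Dusp1 (0.0152) and Egr1 (0.0215) had an adjusted p under 0.05, and none of them changed over 4-fold.

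Members of the list of further early response genes that passed the same limma threshold differed in direction. In Treg PBS against CD4 PBS 5 of 41 were higher and 2 lower, beside 7.85% and 2.35% of all genes: Nr4a3 (4.79), Nr4a2 (4.11), Ier5l (4.04), Bhlhe40 (2.57) and Rgs1 (2.19) were above and Klf2 (-3.27) and Sgk1 (-2.15) below on the log2 scale. After DTx Bhlhe40, a repressor of the circadian family, rose in CD4+ (3.78) and CD8+ Tconv cells (3.30), and Ppp1r15a fell in both (-3.17 and -3.37). In CD4+ cells Ier3 also rose (2.76) and Gadd45a (-2.99) and Myc (-2.03) fell, so that 2 of 41 rose and 3 fell, beside 5.06% and 1.79% of all genes. In CD8+ cells 1 of 41 rose and 1 fell (3.87% and 1.59% of all genes). Against Treg cells CD4 DTx cells had Ier3 higher (2.39) and Ier5l (-5.51) and Rgs2 (-2.45) lower (1.56% and 2.45% of all genes), and Ier5l was higher in CD8 DTx than in CD4 DTx (4.54).

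Without the 3 PBS libraries numbered 3 some calls of this list were lost and others gained. CD4 PBS and CD8 PBS were then library 2 alone, so differences from them are given without calls. Genes that passed only then are not counted as calls either, such as Klf10 and Socs3 (Treg PBS against CD4 PBS) or Nr4a2, Nr4a3 and Rgs1 (CD4 DTx against CD4 PBS). After DTx Bhlhe40 was at 4.0 in CD4+ and at 2.91 in CD8+ Tconv cells, and Ier3 at 3.47 in CD4+ cells. Ppp1r15a was at -2.09 in CD4+ and -1.99 in CD8+ cells. In CD4+ cells Gadd45a was at -2.30 and Myc at -1.22. In Treg PBS against CD4 PBS Nr4a3 was at 8.12, Nr4a2 at 6.07, Ier5l at 3.92, Rgs1 at 2.49 and Bhlhe40 at 2.46. Klf2 was at -3.41 and Sgk1 at -1.68. In CD4 PBS 2 Nr4a3 was at 0 and Nr4a2 at 6.83 normalized reads, against 141 and 138 in CD4 PBS 3. In CD4 DTx against Treg PBS Ier3 (3.15) was called and Btg2 was newly called higher. Ier5l (-5.14, limma adjusted p = 0.0550) and Rgs2 (-1.82, 0.0151 and under 4-fold) were not called. Ier5l between CD8 DTx and CD4 DTx kept its difference but not its call (limma adjusted p = 0.124), and Nr4a2 was newly called higher in CD8 DTx.

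Of the 18 upstream kinases and promoter factors, Crem (2.93), a cyclic AMP response factor, was higher in Treg PBS than in CD4 PBS, and none was called in the other contrasts by limma, where between 0 and 6 had an unadjusted p under 0.05. Of the 12 heat shock genes, Hspb1 was higher in Treg PBS than in CD4 PBS (4.23) and lower in CD4 DTx when set against Treg PBS (-4.42), and none was called by limma between DTx and PBS in CD4+ (0 with an unadjusted p under 0.05) or CD8+ Tconv cells (1). Without the 3 PBS libraries numbered 3, CD4 PBS was library 2 alone, and Treg PBS differed from it by 2.93 in Crem and 4.88 in Hspb1. Between CD4 DTx and Treg PBS Hspb1 was then at -4.14 and not called (limma adjusted p = 0.0895).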

How the data were processed

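RNA from sorted, tumor-infiltrating T cells was sequenced by the authors in 13 libraries. Per the labels the libraries followed a SmartSeq2 protocol, whereas the study's methods name an ultra-low-input SMARTer kit. The authors trimmed reads with Cutadapt, aligned them to NCBIM37 (mm9) with hisat2, kept unique alignments and scaled to library size, with a correction by intergenic reads. Which counter, strand option and gene filter were used is not given in the sources used here, so genes that overlap others or have antisense partners are uncertain.

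The deposited table holds a normalized signal per gene and library. In each library 100% of values were whole multiples of 1 step within 0.01 read, so the reads were recovered, and 1 read was worth between 0.661 and 1.37 normalized reads. All columns matched a sample title. Libraries of a group differed beyond counting noise (chi-square per degree of freedom 44.6 to 251.4) and were kept as separate samples. Symbols of 21 genes had been turned into dates, and 53 genes were at 0 throughout.

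Log2(value + 1) was fitted with limma 3.58.1 (eBayes with trend, R 4.3.3), with a mean for each group and all 13 libraries in the fit. Genes were called at an adjusted p under 0.05 (Benjamini-Hochberg) and over 4-fold. The study used DESeq2 with the same thresholds, and edgeR 4.0.16 and DESeq2 1.42.0 were run here on recovered reads as alternatives, along with other pseudocounts, filters and scalings, a replicate block and omitted libraries. The scripts were tested on simulated data. A fold change on this scale understates that of low transcripts.

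The members, lists and tests were chosen with earlier results of these data known. Named were the 10 members, up to 6 called genes per list and contrast, the 10 genes most like the mean deviation of the members and the 5 most opposite, and lineage and sex-linked genes. The same numbers were shared by CD8 DTx and CD4 DTx in 3 pairs, and deviations of same-numbered libraries from their group means correlated over all genes at 0.36, 0.21 and 0.59, so these numbers were taken to pair the libraries. The fit reported first has no number term in any contrast, and values with it stand beside the results. Fosl1 and Ctgf of the early response list, and Mlana, Hbb-b1, Hbb-b2, Col1a1, Col1a2, Col3a1 and Cdh5 of the marker lists, were not analysed here.

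Marker lists gave few calls by limma. Cd74, counted with the myeloid markers, and Cd79b of the B cell list were higher in Treg PBS than in CD4 PBS, and Cd74, Cd79a, Cd79b, Tyrp1 and Dct were lower in CD4 DTx when set against Treg PBS. Cd68 was higher in CD8 DTx than in CD4 DTx, and Cd8a in CD4 DTx than in CD4 PBS. No erythroid, stromal or sex-linked gene was called. Without the 3 PBS libraries numbered 3, CD4 PBS was library 2 alone, so no marker calls against it are given. Of the marker calls in the other contrasts, only that of Cd74 in CD4 DTx against Treg PBS then remained, at -4.17.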

Additional observations from a re-analysis of the deposited data

How the results depend on the processing

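Of the counts of members called in 7 comparisons, 111 alternative values stayed within 1.5 times the reported count and 22 moved. For CD4 DTx against CD4 PBS (0 called) the count was 1 with a pseudocount of 10 (Jun), 2 with DESeq2 (Jun and Junb) and 0 to 1 when a library was left out. For CD8 DTx against CD8 PBS (2 called) it was 1 with edgeR (Junb), 0 in a fit of those groups only, and 0 without CD8 DTx 1 or CD8 DTx 2. For Treg PBS against CD4 PBS it was 0 to 1 when a library was left out. For any difference among the 5 groups (3 called) it was 0 without CD8 DTx 1 or CD8 DTx 2, and 1 without Treg PBS 2 or CD4 DTx 2. In CD4+ cells the log2 difference turned to 1.06 and 0.68 for Fosb, 0.38 and 0.38 for Egr1, and 0.42 and 0.47 for Nr4a1 without the 3 and the 5 libraries, and ranged over omitted libraries from -3.14 to 1.06, -1.76 to 0.38 and -2.72 to 0.42, and from -0.98 to 1.63 for Atf3. In CD8+ cells it turned to 0.31 and 0.23 for Egr1, 1.38 and 1.36 for Nr4a1, and 0.67 and 0.73 for Klf6, with ranges from -1.86 to 0.31, -1.97 to 1.38 and -1.13 to 0.67. Without the 3 libraries the median over the members for CD4 DTx against Treg PBS turned from -0.61 to 0.49. Omissions of number 3 were chosen after seeing the data, and the cause was not tested. They left CD4 PBS and CD8 PBS as library 2 alone, so turns in these groups rest on that library and counts are not given.

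With the replicate number as a block the count was 1 for CD4 DTx against CD4 PBS (Jun), 4 for CD8 DTx against CD8 PBS (Fos, Jun, Junb and Dusp1), 1 for CD4 DTx against Treg PBS (Dusp1) and 5 for any difference, and Fosb in CD4+ cells was at 0.12. The block changed no other count. It takes the shift between numbers as equal in PBS and DTx, whereas library 3 exceeded library 2 far more in the PBS groups. The number term was not the reported fit, since the labels give it no meaning. Outside CD8 DTx against CD4 DTx the libraries were not taken as pairs, although those numbered 3 share their sex-linked pattern in every group. Within a treatment, same-numbered deviations correlated over all genes with a median of 0.19 (9 pairs), against -0.10 for different numbers (16 pairs). Between PBS and DTx the medians were 0.02 (14 pairs) and -0.01 (28 pairs). Same-numbered deviations correlated at -0.21 and -0.31 (CD4 DTx, CD4 PBS), 0.08 and -0.01 (CD8 DTx, CD8 PBS), 0.10 and 0.10 (Treg PBS, CD4 PBS), and 0.25, 0.04 and 0.21 (CD4 DTx, Treg PBS), where Treg PBS 2 correlated better with CD4 DTx 3 (0.07) than with its own number.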
